A study of Mus musculus with 99 samples.

Results

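The collagen genes of the mouse brain were followed across 5 brain regions and after perinatal exposure to the opioid fentanyl. Members were the protein-coding genes whose GENCODE symbol has the form Col, a number, the letter a and a number. This rule found 44 of the 55335 genes counted, and it used no measured value. By structure and assembly they fall into 11 fibrillar chains, 6 type IV chains of basement membrane, 6 type VI chains of beaded filaments, 9 FACIT chains, 4 transmembrane collagens, 3 short-chain network collagens, 2 multiplexins and 3 others. FACIT stands for fibril-associated collagens with interrupted triple helices, which decorate the surface of fibrils.

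Collagens are extracellular proteins whose chains wind around one another into a stiff helix. Most are secreted and assemble into fibrils, sheets or filaments, while the transmembrane collagens stay anchored in the cell membrane. In the brain the fibrillar types I and III lie mainly in the meninges and around large vessels, type IV forms the basement membrane under the endothelium of every vessel, and several FACIT, transmembrane and type VI chains are made by neurons or glia. A tissue punch therefore mixes collagen RNA from vessel walls, adhering meninges and the neural tissue itself. In such bulk samples a change in the number of cells of a type and a change in the RNA per cell cannot be told apart.

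The animals were wildtype juvenile offspring of C57BL/6 dams. Fentanyl dams had the drug at 10 µg/ml in their drinking water from embryonic day 0 to weaning, and control dams had plain water. Both sexes were sampled by tissue punch in the ventral tegmental area (VTA), which holds midbrain dopamine neurons, the ventrobasal thalamus (VBT), a relay of touch and pain, 2 cortical areas, prelimbic (PrL) and primary somatosensory (S1), and the nucleus accumbens (NAc) of the ventral striatum. Region, sex and treatment gave 20 groups of 5 libraries, except VTA male water and S1 male water with 4 each. Exposure was by way of the dam, and the labels give neither litter nor animal, so regions may share animals and p-values measure only the spread between these libraries.

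A total of 98 libraries was used, with 23032078 to 52069639 counts each (median 36024982). One VTA male water library with 6333 genes detected was left out, since the others had 24079 to 27347. Marker lists matched the labelled region: the summed CPM (the count of a gene scaled to an equal total of counts in every library) of 6 dopamine midbrain genes was 335 to 1733 in VTA and at most 69.3 elsewhere. In 11 libraries, at least 1 in each region, choroid plexus or olfactory bulb genes exceeded 10 times the median of their region. For 8 choroid plexus genes these were VTA female water 5 and male water 2, VBT female water 2 and 3 and male fentanyl 5, S1 female water 2 and male fentanyl 2, PrL male water 1 and NAc male fentanyl 3. Their summed CPM lay between 237 and 1064, apart from VBT female water 2. That library had a summed CPM of 4638 over 8 choroid plexus genes, against a median of 18.7 in the other VBT libraries. PrL female water 5 and PrL male water 3 had 323 and 584 over 6 olfactory bulb genes, against a median of 19.6 in the other PrL libraries of each. Striatal genes (6 genes, summed) reached 714 CPM in VBT male water 3, 496 in VBT female water 2 and 293 in VBT male fentanyl 5, where the VBT median was 115.

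Nearly the whole family was transcribed in every region. A count was present in every library for 41 of 44 members, and 42 passed the filter on low counts in all 5 regions. Col4a6 and Col10a1, a type IV chain and a cartilage network chain, were the sparsest, with 0 counts in 22 and 18 libraries. No member had fewer than 10 counts in every library. Members were long and GC-rich: 42 of 44 exceeded the median exon length of protein-coding genes and 39 of 44 the median GC content (medians of 55.1% against 48.7%). Of the 44 members, 18 overlapped an annotated gene on the other strand, and whether the counting used strand is not given in the sources used here, so reads of such pairs may be mixed.

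Levels between genes were compared as CPM per kilobase of exon, averaged over the 98 libraries. Exon length covered all annotated exons of a gene merged, 4380 bases for Col6a1 and 12426 for Col1a2. The order of genes and the ratios between chains per kilobase therefore depend on the annotation. Col6a1, a chain shared by all type VI filaments, had the highest level with 19.7, and it lies at chr10:76708792-76726168 on the minus strand (GRCm38). The type IV chains Col4a2 and Col4a1 of the vessel basement membrane came next with 11.9 and 9.42. The fibrillar chain Col11a2 (5.89), the transmembrane collagen Col25a1 (5.81), which was first isolated from amyloid plaques, the FACIT chains Col9a3 (5.43) and Col16a1 (4.42), the fibrillar chain Col11a1 (3.05) and the FACIT chains Col19a1 (2.45) and Col9a2 (2.40) completed the first 10. The major fibrillar chains of connective tissue ranked lower, with Col1a2 at 2.21, Col1a1 at 1.93 and Col3a1 at 1.09.

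**Figure D1:**
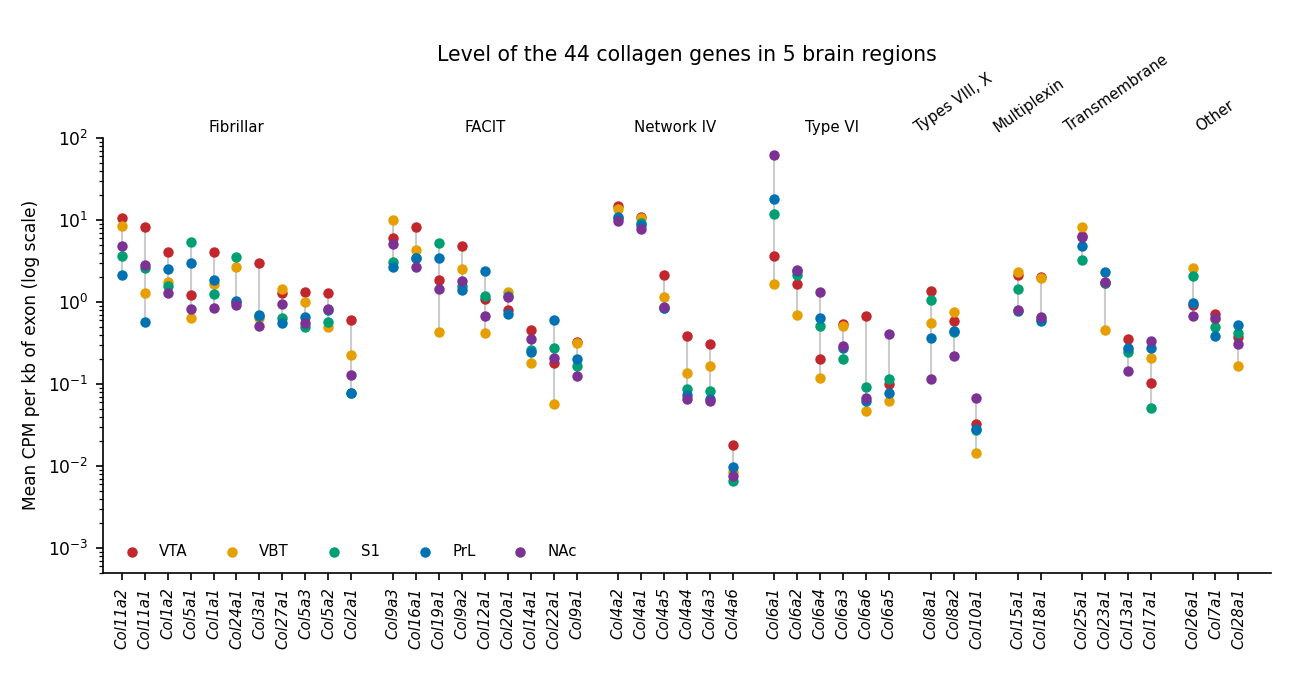
Mean CPM per kilobase of exon (log axis) of the 44 collagen genes in each of the 5 regions, 1 symbol per region, with genes grouped by structural family. Col6a1 in NAc (62.3) is the highest point, and the spread between regions is wide for Col6a1 and narrow for Col4a1 and Col4a2.

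The region profile differed between families, as the plot of levels by gene and region shows. Type VI chains summed to 66.9 ± 12.2 CPM per kilobase in NAc (SD, n = 20), against 21.4 ± 5.28 in PrL, 14.8 ± 4.41 in S1, 6.80 ± 2.17 in VTA and 3.07 ± 2.23 in VBT. Fibrillar chains were highest in VTA, with 36.5 ± 9.22 (n = 19), and lowest in PrL, with 13.9 ± 3.57. Type IV chains summed to between 28.5 ± 6.24 in VTA and 18.5 ± 3.01 in NAc, a sum made up mostly by Col4a2 and Col4a1 (14.7 and 10.9 in VTA). Of the 44 members, 24 had their highest mean CPM in VTA, 7 in VBT, 6 in NAc, 4 in PrL and 3 in S1. This count depends on the scaling. In the edgeR fit described next, Col4a1, Col4a2, Col6a3, Col9a1 and Col18a1 were instead highest in VBT, and Col6a2 in PrL.

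Each region was set against the other 4 in 1 edgeR quasi-likelihood fit over all libraries, in which a gene was called at an adjusted p under 0.05 and a difference of at least 2-fold. In VTA 16 of 44 members were called, 14 higher and 2 lower, against 17.4% of the 22326 genes tested (9.97% higher, 7.41% lower), and their median log2 difference was 0.54 against 0.00 for all genes. In VBT 18 were called, 6 higher and 12 lower, where the background was 19.3% (8.37% higher, 10.9% lower). The 6 higher VBT members became 4 with GC offsets (background 7.67%) and 3 with water libraries alone (8.34%), Col9a3, Col18a1 and Col26a1, and 12 were called lower in each fit. In NAc 15 were called, 5 higher and 10 lower, where it was 13.4% (7.93% higher, 5.50% lower). The 10 lower NAc members became 7 with GC offsets or with all 99 libraries (5.22% and 5.27%) and 5 without the 11 libraries named above (5.27%). In PrL 10 were called, 6 higher and 4 lower, where it was 13.9% (7.25% higher, 6.67% lower). In S1 6 were called, 4 higher and 2 lower, where it was 11.9% (7.12% higher, 4.74% lower). These 5 comparisons share libraries.

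In the ventral tegmental area 6 of 11 fibrillar chains were called higher and none lower, as were 3 of 6 type IV chains, where 9.97% of all genes were called higher. Col11a1, a chain of type XI collagen that limits fibril thickness (chr3:114030540-114220718), had 62.2, 103 and 147 CPM as the lowest, median and highest of the 19 VTA libraries. The highest library of any other region had 57.3, so VTA did not overlap with the rest. The difference from the other regions in log2 units was 2.34 with an SE of 0.09 (edgeR adjusted p = 1.33e-39). At the other end, Col11a1 in PrL had 3.87, 6.39 and 17.3 CPM, 2.37 ± 0.12 log2 units below the other regions (log2 difference -2.37, edgeR adjusted p = 3.44e-31). S1 and NAc, neighbours in the order of levels, did not differ beyond their spread (log2 difference -0.029, edgeR adjusted p = 0.86).

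Col11a2, the partner chain of type XI, split the regions differently. Its lowest, median and highest libraries had 41.8, 66.8 and 106 CPM in VTA and 42.0, 57.1 and 85.2 in VBT, and a difference between these regions did not pass the test (log2 difference 0.12, edgeR adjusted p = 0.11). In PrL it had 10.8, 14.5 and 23.4 CPM, the lowest region (-1.49 ± 0.06, edgeR adjusted p = 4.67e-38). Every VTA and VBT library lay above every library of the other regions, whose highest had 39.4. The ratio of Col11a1 to Col11a2 per kilobase thus had a median of 0.802 in VTA, 0.745 in S1 and 0.568 in NAc, but of 0.243 in PrL and 0.129 in VBT.

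Col2a1, the fibrillar collagen of cartilage and of the embryonic notochord, was low throughout but had 2.53, 5.57 and 9.53 CPM in VTA against a highest library of 2.90 elsewhere. VTA thus overlapped with the other regions only at its lowest library. Its log2 difference was 2.28 ± 0.08 in VTA and -1.30 ± 0.11 in S1 (edgeR adjusted p = 1.28e-41 and 1.38e-18). Col3a1, Col1a1 and Col1a2, the main chains of loose connective tissue, were also called higher in VTA, with log2 differences of 2.14, 1.48 and 1.12. Their libraries spread widely there, with Col3a1 between 7.60 and 49.8 CPM (median 36.3).

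A pair of fibrillar chains was instead highest in cortex. Col5a1, which nucleates fibrils, had 27.7, 41.2 and 97.8 CPM in S1 and 15.1, 25.1 and 40.9 in PrL. Its S1 difference was 2.21 ± 0.10 (edgeR adjusted p = 8.02e-34), and VBT and NAc, the 2 lowest regions, did not differ beyond their spread (log2 difference -0.28, edgeR adjusted p = 0.079). Col24a1, a fibrillar chain first described in bone and cornea, was 1.54 ± 0.12 log2 units higher in S1 (edgeR adjusted p = 2.71e-19). Its median was 25.2 CPM in S1 and 19.9 in VBT, against 5.27 in PrL.

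Bases upstream of the start of 2 of these VTA-high genes are shown because their composition differs, and they come from RefSeq (GRCm38.p6). The 250 bases before Col3a1 lie at chr1:45311288-45311537 and those before Col11a1 at chr3:114030290-114030539, both on the plus strand. Capitals mark TATAAA in Col3a1, starting 117 bases before the start, and in Col11a1 GGGCGG, starting 110 and 19 bases before it, and ATTGG, the reverse complement of CCAAT, 79 bases before it.
Col3a1: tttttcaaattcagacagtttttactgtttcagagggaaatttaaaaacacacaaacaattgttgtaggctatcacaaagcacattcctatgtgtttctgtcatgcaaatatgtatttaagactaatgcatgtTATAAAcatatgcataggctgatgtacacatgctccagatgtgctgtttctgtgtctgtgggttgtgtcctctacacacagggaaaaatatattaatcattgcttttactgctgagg
Col11a1: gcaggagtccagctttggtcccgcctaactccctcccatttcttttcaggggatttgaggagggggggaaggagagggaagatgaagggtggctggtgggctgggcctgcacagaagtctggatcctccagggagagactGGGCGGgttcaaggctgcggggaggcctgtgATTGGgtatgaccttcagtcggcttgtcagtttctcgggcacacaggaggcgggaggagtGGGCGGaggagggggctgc

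RefSeq windows were found for 35 of the 44 members, 38 windows in all. Over the 250 upstream bases and both strands, GGGCGG was in 57.9% of these windows against 32.7% of 32851 windows of all genes, TATAAA in 13.2% against 12.4% and CCAAT in 34.2% against 33.8%. Read on both strands, these motifs can share bases at their ends and were counted separately, and a match describes the letters, not a bound site. Median GC content was 59.0% against 52.4%, so the windows with more GGGCGG were also richer in G and C.

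Of the 9 FACIT chains, 4 had their highest mean CPM in VTA, 3 in cortex and 2 in VBT. In the edgeR fit Col9a1, by CPM highest in VTA, was higher in VBT (log2 difference from the other regions 0.79, against 0.67 in VTA). Col19a1, which subsets of neurons are known to make (chr1:24261890-24587472), had 24.1, 36.9 and 43.7 CPM in S1 and 18.5, 22.7 and 33.5 in PrL. In VBT it had 1.42, 2.90 and 5.85. The S1 difference was 1.93 ± 0.07 and the VBT difference -2.56 ± 0.10 (edgeR adjusted p = 7.89e-40 and 1.18e-39), and all 10 pairs of regions differed. Col22a1, a chain of tissue junctions, was lower in level but separated PrL from every library of the other regions, with 4.36, 5.32 and 7.03 CPM against a highest value of 4.19 elsewhere. Its PrL difference was 2.04 ± 0.12 (edgeR adjusted p = 2.90e-28). Col12a1, a chain bound to type I fibrils, was also higher in PrL, by 1.66 ± 0.11 (edgeR adjusted p = 7.29e-24), with a median of 35.7 CPM.

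Col9a3 belongs to type IX collagen of cartilage and had 25.6, 32.7 and 129 CPM in VBT, 1.40 ± 0.09 log2 units above the other regions (edgeR adjusted p = 1.06e-25). The value of 129 came from VBT female water 2, the library high in choroid plexus genes, and the next highest was 62.2. That library also had the highest VBT value of 17 other members, among them the network chains Col8a1 (47.2 CPM, next 7.0) and Col8a2 (34.4, next 7.16) and the type IV chain Col4a4 (10.7, next 1.67). Without VBT female water 2, PrL female water 5 and PrL male water 3, the same 18 members were called in VBT and the same 16 in VTA, 12 instead of 15 in NAc and 12 instead of 10 in PrL. In that fit 19.6%, 17.5%, 13.4% and 14.6% of all genes were called in VBT, VTA, NAc and PrL. Without all 11 libraries high in choroid plexus or olfactory bulb genes, VTA had 18 calls (16 shared with those above), VBT 17 (all shared), S1 the same 6, PrL 10 (9 shared) and NAc 10 (all shared). There 17.8%, 19.9%, 11.7%, 14.6% and 13.6% of all genes were called in VTA, VBT, S1, PrL and NAc. Both alternatives were chosen after seeing the data.

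Col26a1, a secreted chain of the EMI domain family, and Col18a1, the basement membrane multiplexin that releases endostatin, were also called higher in VBT. Col26a1 had 11.3, 21.6 and 31.3 CPM there, a difference of 1.40 ± 0.06 (edgeR adjusted p = 6.10e-36). Its S1 libraries reached 22.9 CPM and overlapped with those of VBT. Col18a1 had 7.24, 13.9 and 19.9 CPM in VBT, a difference of 1.33 ± 0.10 (edgeR adjusted p = 2.97e-20), and was called higher in VTA as well.

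**Figure D2:**
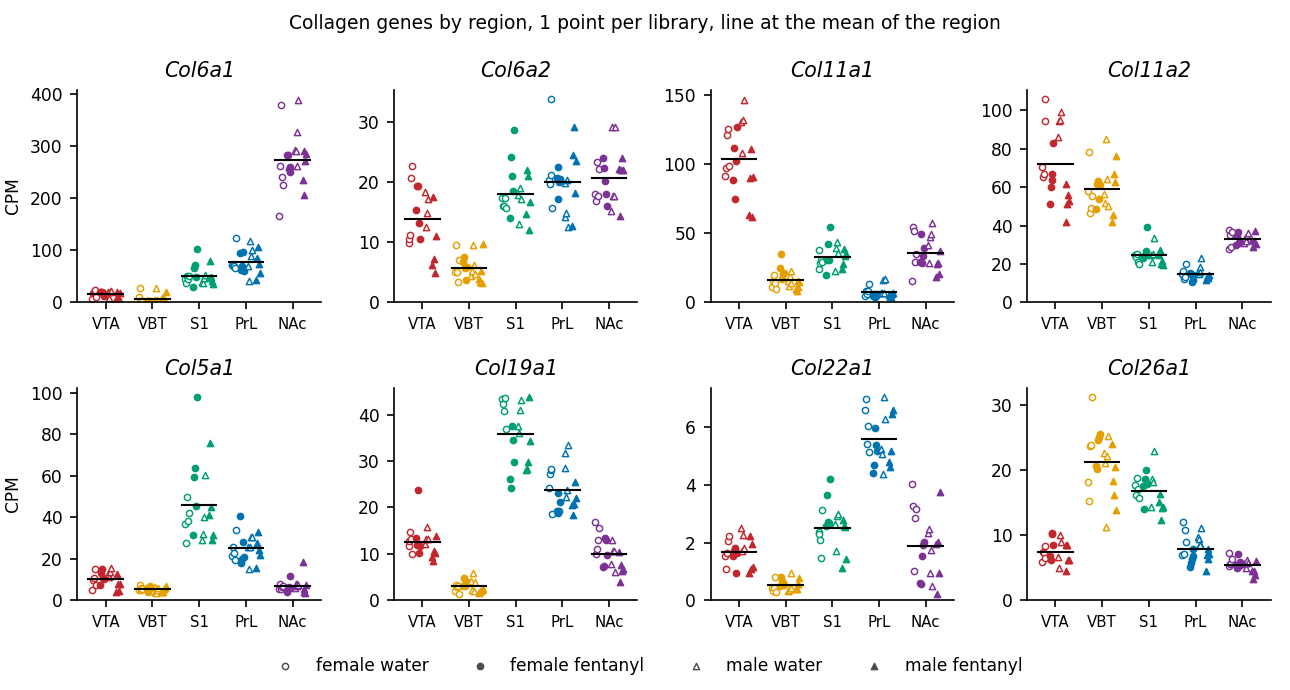
CPM per library of Col6a1, Col6a2, Col11a1, Col11a2, Col5a1, Col19a1, Col22a1 and Col26a1 by region (open symbols water, filled fentanyl, circles females, triangles males, line the mean of the region). Col6a1 in NAc and Col11a1 in VTA lie above every library of the other regions, while Col6a2 overlaps between S1, PrL and NAc.

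Type VI collagen showed the widest range of any family. Col6a1 had 165, 267 and 389 CPM in NAc, 41.3, 70.7 and 123 in PrL, 30.0, 47.6 and 102 in S1, 6.15, 18.2 and 24.3 in VTA and 1.74, 3.61 and 27.8 in VBT. Every NAc library lay above every library elsewhere, and the mean in NAc was 38.0 times that in VBT. The log2 difference was 3.39 ± 0.14 in NAc, -3.27 ± 0.20 in VBT and -1.81 ± 0.19 in VTA (edgeR adjusted p = 1.86e-37, 7.43e-26 and 1.14e-14). In PrL it was 1.26 ± 0.15 (edgeR adjusted p = 2.02e-12), where the fit compares log means: by arithmetic means PrL had 78.4 CPM and the other regions 86.8. All 10 pairs of regions differed for Col6a1, down to S1 against PrL (-0.66, edgeR adjusted p = 0.0039).

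Its partner chain followed only in part, with its highest mean in NAc and its lowest in VBT. Col6a2, needed beside Col6a1 in the type VI monomer, had means of 18.0, 20.1 and 20.6 CPM in S1, PrL and NAc, and none of these 3 pairs passed the test (edgeR adjusted p = 0.21, 0.31 and 0.79). It was called lower in VBT, where its mean was 5.76 CPM (-1.56 ± 0.11, edgeR adjusted p = 1.90e-22). The ratio of Col6a1 to Col6a2 per kilobase had a median of 25.3 in NAc (range 17.4 to 36.6), between 5.27 and 6.78 in cortex, 2.36 in VTA and 1.54 in VBT (range 0.503 to 5.50). No NAc library overlapped with a library of another region in this ratio, the highest of which was 15.3 in PrL.

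The alternative partner chains of type VI also differed by region. Col6a4 and Col6a5 were called higher in NAc, by 2.09 ± 0.17 and 2.26 ± 0.17 (edgeR adjusted p = 1.38e-18 and 1.50e-20), at means of 11.3 and 3.81 CPM. Col6a4 was called lower in VTA (-1.29 ± 0.23, edgeR adjusted p = 4.72e-07) and, by more, in VBT (-2.25 ± 0.24, edgeR adjusted p = 7.43e-14). Col6a5 and Col6a6 were also called lower in VBT (-1.49 and -1.34, edgeR adjusted p = 3.64e-08 and 3.46e-11). Col6a6 was instead called higher in VTA, by 3.27 ± 0.13 (edgeR adjusted p = 3.46e-40), with 0.865, 5.98 and 13.0 CPM there and at most 1.37 in any other library. Only the 2 lowest VTA libraries of Col6a6 overlapped with the rest. The genes Col6a4, Col6a5 and Col6a6 lie next to each other on chromosome 9.

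The remaining calls named by the rule were low in one region. Col8a1 and Col8a2, which form hexagonal sheets under endothelium, were lower in NAc by 2.63 and 1.37 (log2 differences -2.63 ± 0.24 and -1.37 ± 0.30, edgeR adjusted p = 7.18e-17 and 3.31e-05), at means of 0.893 and 0.990 CPM. Col17a1, a transmembrane collagen of hemidesmosomes, was lowest in S1, with a mean of 0.308 CPM (-2.02 ± 0.18, edgeR adjusted p = 4.75e-17).

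Striatal genes moved with Col6a1 among the VBT libraries. The 3 VBT libraries highest in striatal genes were also the 3 highest in Col6a1, with 27.8, 27.3 and 19.1 CPM in male water 3, female water 2 and male fentanyl 5, and the other 17 had 1.74 to 9.85. Without those 3, an alternative chosen after seeing the data, the VBT difference of Col6a1 was -3.89 (edgeR adjusted p = 1.73e-34) and the mean in NAc was 66.9 times that in VBT. The members called were then the same 16 in VTA and 6 in S1, 17 in VBT (all shared), 11 in PrL (9 shared) and 12 in NAc (11 shared). Of all genes 17.4%, 11.8%, 19.9%, 14.0% and 13.6% were called in VTA, S1, VBT, PrL and NAc.

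The minor type IV chains were low and differed by region. Col4a4, Col4a3 and Col4a5, known from the filtration barrier of the kidney, were called higher in VTA, by 2.09 ± 0.14, 1.78 ± 0.12 and 1.09 ± 0.08 (edgeR adjusted p = 6.45e-24, 1.56e-24 and 1.41e-22). Col4a4 had 0.996, 4.10 and 6.66 CPM as the lowest, median and highest VTA library, and its highest library elsewhere was the 10.7 of VBT female water 2. Col4a4 and Col4a3 were called lower in NAc (-1.05 and -1.08), and their highest and lowest region means differed 5.81-fold and 5.01-fold.

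The vessel basement membrane chains Col4a1 and Col4a2 differed less between regions. Col4a2 had means of 97.3, 89.7, 70.0, 72.2 and 63.5 CPM in VTA, VBT, S1, PrL and NAc, and Col4a1 of 81.6, 78.7, 69, 64.3 and 58.7. Neither reached 2-fold in any region. VTA and VBT did not differ beyond their spread for Col4a1 (log2 difference -0.11, edgeR adjusted p = 0.056) or Col4a2 (-0.049, edgeR adjusted p = 0.47), nor did S1 and PrL (0.087, edgeR adjusted p = 0.15, and -0.063, edgeR adjusted p = 0.38). The fit, with TMM normalization and log means, put VBT above VTA, while mean CPM was higher in VTA for both genes. Their ratio per kilobase had a median between 0.744 and 0.900 in every region.

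These 2 genes are transcribed in opposite directions from one place, Col4a2 at chr8:11312805-11449287 on the plus strand and Col4a1 at chr8:11198423-11312826 on the minus strand. Their annotated starts overlap by 22 bases, shown because the pair moved together. Across the 19 or 20 libraries of a region their CPM had a Pearson r of 0.917 (VTA), 0.687 (VBT), 0.826 (S1), 0.893 (PrL) and 0.896 (NAc), a description of libraries that also share depth and vessel content. The bases come from RefSeq (GRCm38.p6), plus strand of chr8:11312805-11312826, with GGGCGG in capitals.
Col4a1 and Col4a2 shared start: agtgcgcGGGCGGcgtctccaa

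Marker levels moved with the connective tissue chains. The summed CPM of 14 fibroblast genes, none of them a collagen, had a median of 167 in VTA, 113 in S1, 98.7 in PrL, 80.7 in VBT and 43.8 in NAc. The mean log2(CPM + 1) of Col1a1, Col1a2 and Col3a1 had a Pearson r with the same measure of that list of 0.925, 0.819, 0.909, 0.868 and 0.861 in VTA, VBT, S1, PrL and NAc, where Spearman's rho was 0.888, 0.717, 0.877, 0.782 and 0.713. Without the 2 libraries farthest from the median of the list, r was 0.889, 0.718, 0.830, 0.819 and 0.645. For Col4a1 and Col4a2 against 12 endothelial genes, r was 0.389, 0.141, 0.411, 0.521 and 0.267. With values centred on their groups it was 0.655 in VTA and 0.290 in PrL. The part of fibroblast content in the region differences of Col1a1, Col1a2 and Col3a1 was not tested.

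Fentanyl was then compared with water within each region, in females, in males, averaged over the sexes, and as the male minus female difference (the interaction). A gene was called at an adjusted p under 0.05 over all genes tested in the region. Collagen genes were called by edgeR in 3 of these 20 comparisons, and each of these calls was lower in fentanyl.

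In VTA males 11 of 42 members tested were called and all 11 fell, while 22.0% of all genes were called in either direction and 11.0% were called lower. The median log2 difference of the 42 members was -0.48, against 0.00 for all genes, and 40 of 42 were below zero. The 11 were the fibrillar chains Col2a1, Col5a3, Col11a1 and Col11a2, the FACIT chains Col9a2, Col9a3, Col16a1 and Col20a1, the type IV chains Col4a1 and Col4a2, and Col7a1. The connective tissue chains Col1a1, Col1a2 and Col3a1 did not pass the test (log2 differences of -0.64, -0.47 and -0.51, with standard errors above 0.54).

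Col7a1, the anchoring fibril collagen of skin that is present at low level in brain, had 10.7, 10.5, 11.7 and 12.6 CPM in the VTA male water libraries (replicates 1, 2, 4 and 5) and 3.40, 6.13, 5.76, 3.88 and 5.55 in male fentanyl. The 2 male groups did not overlap, and every fentanyl library was well below the lowest water library. The fall was 1.17 ± 0.20 on the log2 scale (log2 difference -1.17, edgeR adjusted p = 0.00222), and the plot of VTA male differences shows it as the lowest called member. Females had 5.21, 6.21, 7.84, 12.1 and 7.42 CPM with water and 4.05, 6.62, 6.12, 7.27 and 6.78 with fentanyl, and these groups overlapped. The male and female differences were not shown to differ (interaction -0.83 ± 0.28, edgeR adjusted p = 0.42).

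Col9a3 had 26.6, 49.3, 31.5 and 29.2 CPM in male water and 11.2, 19.4, 17.8, 17.3 and 18.0 in male fentanyl, again without overlap. The log2 difference was -1.0 with an SE of 0.21 (edgeR adjusted p = 0.00398). Col11a2 had 86.4, 94.3, 95.1 and 99.1 CPM in male water and 41.8, 61.5, 51.2, 55.9 and 53.0 in male fentanyl, with no overlap and little spread in either group. The log2 difference was -0.80 ± 0.15 (edgeR adjusted p = 0.00296). Col5a3, a minor chain of type V fibrils, had 11.2, 12.9, 11.7 and 13.9 CPM in male water and 7.72, 5.22, 7.13, 8.30 and 5.72 in male fentanyl (-0.82 ± 0.19, edgeR adjusted p = 0.00568). The male groups of the FACIT chain Col20a1 did not overlap either. How many of all genes had male groups without overlap is not given here, and 34.7% of all genes had an unadjusted p under 0.05 in this comparison.

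For the type IV chains the male groups overlapped. Col4a2 had 118, 97.2, 155 and 150 CPM in male water and 56.2, 89.0, 77.1, 77.6 and 103 in male fentanyl (-0.65 ± 0.15, edgeR adjusted p = 0.00657). Col4a1 had 99.2, 75.3, 118 and 109 against 58.4, 88.4, 64.5, 66.7 and 89.9 (-0.41 ± 0.14, edgeR adjusted p = 0.0411). The other called members had log2 differences between -0.76 (Col2a1, edgeR adjusted p = 0.0170) and -0.57 (Col16a1, edgeR adjusted p = 0.0259), namely Col9a2 with -0.75, Col20a1 with -0.64 and Col11a1 with -0.60 (edgeR adjusted p = 0.0309, 0.0219 and 0.0132).

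**Figure D3:**
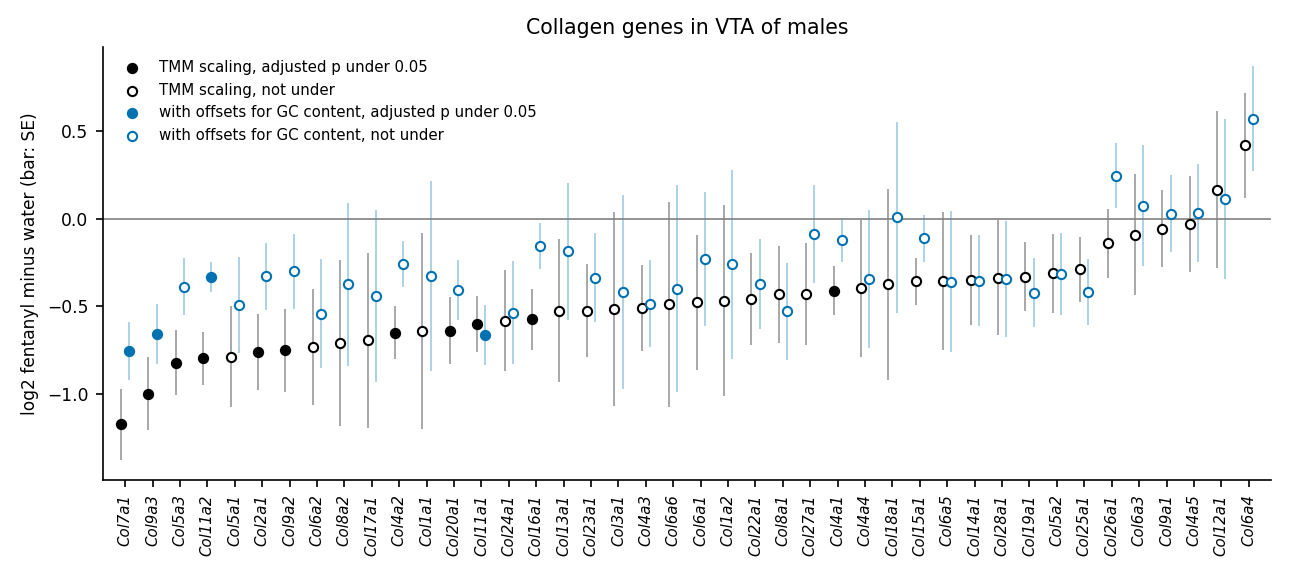
Log2 difference of fentanyl minus water with its standard error in VTA males for the 42 collagen genes tested, from the fit with TMM normalization and from the fit with offsets for GC content; filled symbols have an adjusted p under 0.05. The TMM fit calls 11 members and the fit with GC offsets 4, Col7a1, Col9a3, Col11a2 and Col11a1.

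Averaged over the sexes, 9 of 42 members were called in VTA and all 9 fell, where 23.1% of all genes were called and 12.0% were called lower. They were those of the male comparison without Col9a2 and Col4a1. The type VI chain Col6a4 went the other way: its difference of 0.46 was not called by edgeR (adjusted p = 0.109), but limma-voom and the fit with the percentage of reads outside exons as a covariate called it higher. In VTA females none was called by edgeR, DESeq2 or limma-voom. At an unadjusted p under 0.05 3 of 42 were lower in females, where 12.7% of all genes passed that p and 7.32% were lower, and the smallest p was that of Col16a1 (-0.44, edgeR adjusted p = 0.32). No interaction was called by edgeR or DESeq2, limma-voom called that of Col11a2, and 7 of 42 had an unadjusted p under 0.05, all with the lower value in males, where 11.4% of all genes passed and 4.90% were lower.

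A trend with GC content ran through the VTA libraries in the same direction as these differences. For each library, Spearman's rho between a gene's deviation from the region mean and its GC content was 0.521 to 0.645 in the 4 male water libraries and -0.490 to -0.103 in the 5 male fentanyl libraries, and members are GC-rich. Among females it was 0.656 and 0.536 in water 4 and 5, -0.321 to -0.229 in the other 3 water libraries and -0.551 to 0.016 with fentanyl. Col11a2 followed it within the female water group, with 94.5 and 106 CPM in replicates 4 and 5 and 70.4, 65.5 and 66.8 in replicates 1 to 3, and Col5a3 did so with 11.6 and 14.2 against 8.24, 6.68 and 8.61. In all, 7 of the 11 called members had female water 4 and 5 above each of the other 3 female water libraries. Col11a1, Col2a1, Col7a1 and Col9a2 did not: Col7a1 had 12.1 and 7.42 against 5.21, 6.21 and 7.84, and Col9a2 had 21.6 and 12.3 against 10.1, 15.2 and 14.5.

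**Figure D4:**
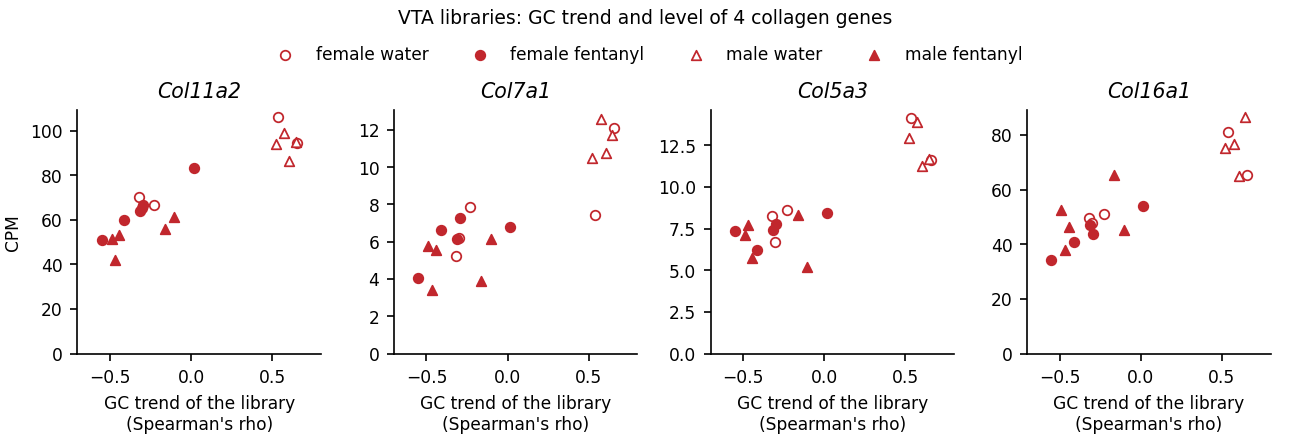
CPM of Col11a2, Col7a1, Col5a3 and Col16a1 in the 19 VTA libraries against the GC trend of the library (Spearman's rho across genes), open symbols water, filled fentanyl, circles females, triangles males. Male water libraries and female water 4 and 5 lie at rho above 0.5, and male fentanyl libraries below zero.

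With offsets that removed this trend library by library, 4 of 42 members remained called in VTA males, Col7a1, Col9a3, Col11a2 and Col11a1, where the share of all genes called went to 4.32%. The median of the 42 was then -0.34, with 35 below zero. Averaged over the sexes, Col11a2 and Col7a1 remained, where 4.84% of all genes were called. With the VTA male water library of few detected genes included, no member and 0.216% of all genes were called in males, and the median difference of all genes moved from 0.00 to 0.20. With both that library and GC offsets 6 were called, all lower, of which 3 were among the 11, where 25.9% of all genes were called and 25.5% were called lower. In that last fit Col4a2 had a difference of 0.060. Without VTA male fentanyl 1 or without VTA male water 5 the count was 7, where 15.8% and 14.8% of all genes were called. Without male water 2 and female water 5, the libraries with choroid plexus genes, 10 of the 11 were called, without Col20a1, where 19.6% of all genes were called, and the difference of Col9a3 was -0.74 (edgeR adjusted p = 0.00422).

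Markers of other cell types are given beside these differences in VTA males, where 22.0% of all genes were called and 11.0% lower. The choroid plexus list had 3 of 8 genes called, all lower, and a summed CPM of 18.4 to 1064 in male water and 21.6 to 32.2 in male fentanyl. Of 12 endothelial genes 3 rose and 1 fell, of 10 mural genes 2 rose and 1 fell, of 6 oligodendrocyte precursor genes 3 fell, and of 14 fibroblast genes none was called. The blood list of 5 genes had a mean summed CPM of 126 in male water and 234 in male fentanyl, and of 150 and 331 in females, with overlapping ranges and none called. The dopamine midbrain list had a summed CPM of 864 to 1499 in male water and 335 to 1240 in male fentanyl. The part of GC content, of these cell types and of the punch position in the collagen differences was not tested.

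In the prelimbic cortex 2 of 42 members were called on the average of the sexes, Col4a1 and Col26a1, and both fell, where 0.697% of all genes were called and 0.556% were called lower. Col4a1 had 60.1, 69, 59.4, 63.5 and 73.5 CPM in female water and 57.5, 61.0, 54.1, 55.5 and 53.7 in female fentanyl. In males it had 70.6, 70.7, 78.0, 75.6 and 77.5 with water and 60.4, 61.1, 59.5, 60.6 and 63.8 with fentanyl. The male groups did not overlap and the female groups did. The average difference was -0.22 ± 0.04 (edgeR adjusted p = 0.0126), and the difference was called in each of 20 fits that left out 1 library. Its partner Col4a2 had the same size of difference but was not called by edgeR (-0.22 ± 0.06, edgeR adjusted p = 0.064). DESeq2 and limma-voom called Col4a2 lower on this average, where they called 4.08% and 1.62% of all genes.

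Col26a1 had 6.93, 12.0, 7.03, 10.8 and 8.93 CPM in female water against 5.15, 5.68, 6.38, 7.87 and 6.85 in female fentanyl. Males had 9.66, 9.44, 8.65, 8.52 and 11.2 against 4.43, 6.97, 6.38, 7.86 and 7.11, and only the male groups were free of overlap. The average difference was -0.50 ± 0.11 (edgeR adjusted p = 0.0456), and it was called in 6 of the 20 fits without 1 library. Without PrL female water 5 and PrL male water 3, the libraries high in olfactory bulb genes, Col4a1 and Col19a1 were called and Col26a1 was not. Without PrL male water 1 as well, which had choroid plexus genes, Col19a1 alone was called, while Col4a1 had -0.21 ± 0.04 (edgeR adjusted p = 0.0622) and Col26a1 -0.53 ± 0.13 (edgeR adjusted p = 0.132).

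Vessel markers lay lower with fentanyl in PrL without a call. The summed CPM of 12 endothelial genes had means of 442 and 447 in female and male water and of 409 and 418 with fentanyl, and that of 10 mural genes had means of 289 and 292 with water and of 262 and 272 with fentanyl. The ranges overlapped in both sexes, from 405 to 484 in female water and 379 to 428 in female fentanyl for the endothelial list. On average 11 of 12 endothelial and 6 of 10 mural genes were below zero, with medians of -0.065 and -0.092, and none was called. The part of vessel content in the Col4a1 difference was not tested.

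The direction was shared by more members than were called. At an unadjusted p under 0.05, 16 of 42 members were lower in PrL on average and none higher, where 19.1% of all genes passed in either direction and 10.9% in the lower one. The percentage of reads outside exons moved with treatment in PrL, with means of 13.3% and 13.7% in female and male water and 11.0% and 11.8% with fentanyl. With that percentage as a covariate no member and no other gene was called, while 7 of 42 members had an unadjusted p under 0.05, all lower, where 7.68% of all genes passed and 4.58% were lower. Its part in the PrL differences was not tested further.

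Within either sex alone no PrL member was called by edgeR, and Col4a1 had the smallest p in both. The female difference was -0.18 ± 0.06 (edgeR adjusted p = 0.32) and the male one -0.26 ± 0.06 (edgeR adjusted p = 0.27), where 0.0210% of all genes were called in females and 0 in males. At an unadjusted p under 0.05, 6 members were lower in females, where 9.53% of all genes passed and 5.52% were lower. In males 11 were lower and 1 higher, where 12.0% passed and 7.16% were lower. DESeq2 called Col4a1 in males (0.147% of all genes) and none in females, and limma-voom called none in either. No interaction had an unadjusted p under 0.05, where 2.59% of all genes did (1.27% lower), and Col15a1, a basement membrane multiplexin, had the smallest (-0.62, edgeR adjusted p = 0.999).

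**Figure D5:**
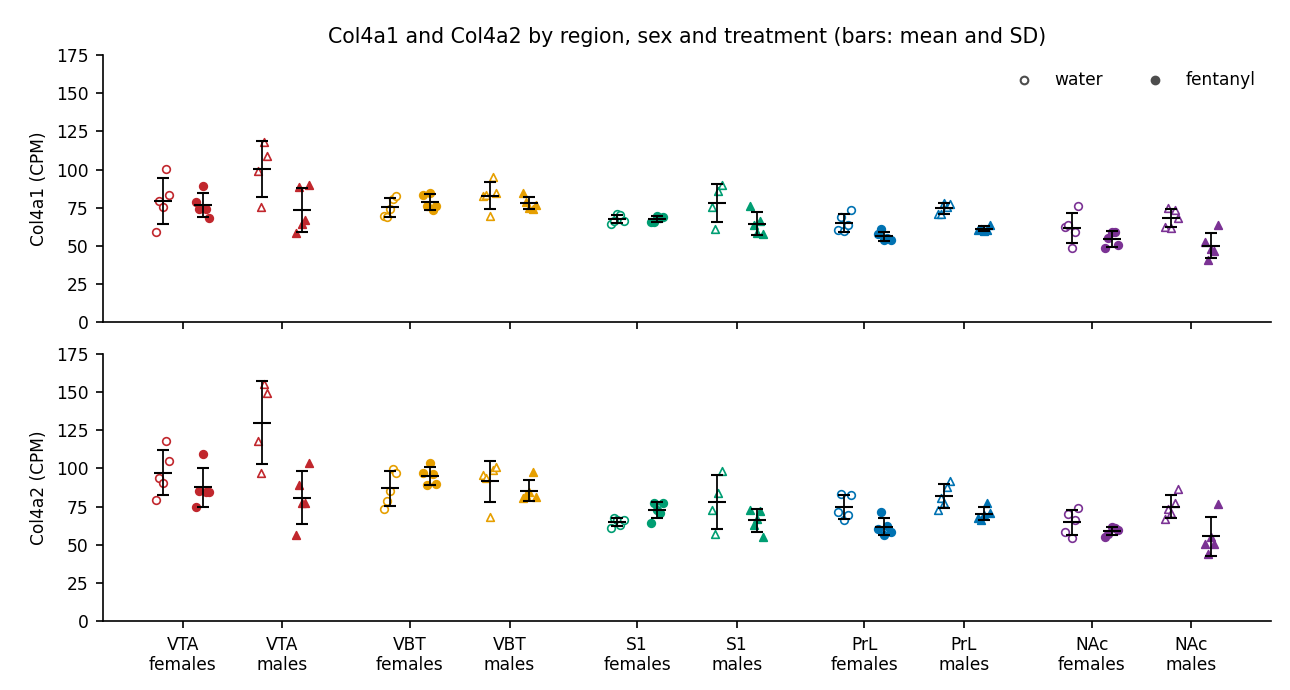
CPM per library of Col4a1 and Col4a2 by region, sex and treatment, with the mean and SD of each group (n = 5, or 4 in VTA male water and S1 male water). Fentanyl libraries of males lie below water libraries in PrL for Col4a1, and overlap only at 1 fentanyl library in NAc.

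In the nucleus accumbens no member was called by edgeR, and the same 2 type IV chains came nearest in males. Col4a1 had 62.6, 74.8, 61.7, 73.4 and 68.5 CPM in male water and 52.4, 40.8, 47.9, 46.5 and 63.3 in male fentanyl. Only fentanyl replicate 5 reached the water range. The log2 difference was -0.41 ± 0.11 (edgeR adjusted p = 0.0621), and that of Col4a2 was -0.41 ± 0.11 (edgeR adjusted p = 0.0628), where 0.662% of all genes were called and 0.241% were called lower. Females overlapped for Col4a1, with 62.5, 63.3, 48.7, 58.9 and 75.8 CPM in water and 48.4, 54.8, 59.2, 59.4 and 50.5 in fentanyl (-0.19 ± 0.11). The plot of both genes by group shows the 2 regions side by side.

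Of 43 members tested in NAc males, 14 were lower and 1 higher at an unadjusted p under 0.05, where 17.6% of all genes passed and 8.00% were lower. DESeq2 called 8, limma-voom 5, the fit with GC offsets 2 and the fit without male fentanyl 5 called 6, all of them lower, where these fits called 4.74%, 7.76%, 1.75% and 4.12% of all genes (2.11%, 3.55%, 0.760% and 1.77% lower). No member was called with offsets for exon length (0.0565% of all genes), with the replicate block (0.0103%) or without male fentanyl 3 (0.0203%), the library high in choroid plexus genes. The median difference of the members was -0.26, -0.25 and -0.33 in these fits, against -0.24 in the edgeR fit without these changes. A trend with exon length ran along treatment in NAc males: Spearman's rho across genes had a mean of 0.122 in water and -0.212 in fentanyl libraries, and members are long. With exon-length offsets Col4a1 had -0.37 (edgeR adjusted p = 0.118). The part of exon length in these differences was not tested further. The striatal list had a mean summed CPM of 2157 in male water and 2731 in male fentanyl, and the groups overlapped. Endothelial and mural lists had none called in NAc males, with mean summed CPM of 473 and 296 in water and 465 and 281 in fentanyl. The fibroblast list had 13 of 14 genes below zero with a median of -0.92, none called, and a summed CPM of 34.1 to 155 in male water and 28.2 to 52.1 in male fentanyl. Its part in the NAc collagen differences was not tested. In NAc females Col9a2 had the smallest p (-0.40, edgeR adjusted p = 0.54), and 3 members were higher and 2 lower at an unadjusted p under 0.05, where 9.03% of all genes passed and 4.67% were lower. DESeq2 and limma-voom called none in NAc females.

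The NAc average had no call by edgeR, 2 by DESeq2 (0.554% of all genes) and 3 by limma-voom (1.13%), and Col4a1 had the smallest p (-0.30 ± 0.08, edgeR adjusted p = 0.22). At an unadjusted p under 0.05, 12 members were lower and 1 higher, where 12.0% of all genes passed and 5.44% were lower. The interaction had its smallest p in the type VI chain Col6a5 (-1.68 ± 0.50, edgeR adjusted p = 0.13), which DESeq2 called (2.37% of all genes) and limma-voom did not. In all 4 members had an interaction at an unadjusted p under 0.05, each lower in males, where 15.2% of all genes passed and 7.09% were lower. Col6a5 had 2.52, 1.79, 2.89, 3.14 and 2.47 CPM in female water and 8.17, 2.38, 7.16, 3.05 and 1.88 in female fentanyl, against 4.66, 3.74, 5.32, 5.49 and 7.22 in male water and 1.89, 1.84, 2.61, 2.91 and 5.12 in male fentanyl. The high female values came from 2 fentanyl libraries, and the 2 male groups overlapped. Tissue markers also stood apart by treatment in the means of NAc females: the mean summed CPM was 1790 in water and 2695 in fentanyl for 6 striatal genes, 231 and 136 for 6 cortical genes, and 4072 and 3245 for 5 neuronal genes, with overlapping ranges. Their part in the NAc differences was not tested.

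In the somatosensory cortex no member was called by edgeR, where 0.142% of all genes were called in females (0.0152% lower), 0 in males and 1.03% on average (0.213% lower). The FACIT chain Col16a1, which links fibrils to cells, had 18.6, 20.4, 20.9, 18.7 and 19.6 CPM in female water and 21.6, 28.7, 30.1, 25.6 and 31.2 in female fentanyl, without overlap. The log2 difference was 0.47 ± 0.11 (edgeR adjusted p = 0.0779), and DESeq2 and limma-voom called it higher (2.04% and 1.06% of all genes). Library trends ran along treatment in S1 females. Spearman's rho across genes with GC content had means of -0.228 in water and 0.169 in fentanyl, and rho with exon length was 0.0375 to 0.277 in water and -0.344 to -0.0131 in fentanyl. Col16a1 has 61.4% GC, and its difference was 0.33 with GC offsets (edgeR adjusted p = 0.209) and 0.50 with exon-length offsets (edgeR adjusted p = 0.0998, where no gene was called). In PrL females the groups of Col16a1 were separated the other way, with 25.2, 26.2, 24.7, 22.3 and 24.0 in water and 20.7, 18.1, 19.0, 21.5 and 20.2 in fentanyl (-0.27 ± 0.09, edgeR adjusted p = 0.36). The difference between the 2 regions was not tested.

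Col19a1 had the smallest p on average in S1 (-0.34 ± 0.09, edgeR adjusted p = 0.0532), and DESeq2 called it. Its female water libraries had 43.3, 42.2, 40.7, 43.6 and 36.9 CPM and its female fentanyl libraries 26.2, 24.1, 37.6, 34.6 and 29.8, which overlapped at 1 library. In PrL the average difference of Col19a1 was -0.33 ± 0.09 (edgeR adjusted p = 0.0887), and DESeq2 and limma-voom called it lower (4.08% and 1.62% of all genes). In S1 females 6 members were higher and 2 lower at an unadjusted p under 0.05, where 13.9% of all genes passed and 6.43% were lower. In males 4 were lower, where 7.15% passed and 3.63% were lower, and on average 5 were lower and 1 higher, where 15.8% passed and 7.32% were lower. For the interaction 9 of 10 were lower in males, where 4.14% passed and 2.21% were lower. Col5a2, a chain of type V fibrils, had the smallest p in S1 males (-0.58 ± 0.14, edgeR adjusted p = 0.62) and in the interaction (-0.72, edgeR adjusted p = 0.96). DESeq2 called 3 members in females and 1 on average (3.27% of all genes), and neither it nor limma-voom called one in males or in the interaction.

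In the ventrobasal thalamus no gene at all was called by edgeR in any of the 4 comparisons. In males Col27a1, a fibrillar chain of cartilage, had 9.96, 12.5, 14.9, 12.1 and 9.84 CPM with water and 10.8, 26.8, 13.1, 62.7 and 68.6 with fentanyl. The mean difference rested on fentanyl replicates 4 and 5, and the groups overlapped (1.58 ± 0.38, edgeR adjusted p = 0.26). Replicate 5 is a library with choroid plexus genes, and without it and VBT female water 2 and 3 the difference was 1.23 (edgeR adjusted p = 0.373). In females Col6a5 had the smallest p, and it rested on the single value of 4.75 CPM in water replicate 2, the library high in choroid plexus genes (-3.49, edgeR adjusted p = 0.42). Fits that left out a library gave -3.78 to -0.95.

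In VBT females 8 members were lower and 4 higher at an unadjusted p under 0.05, where 7.86% of all genes passed and 4.04% were lower. In males 4 were higher and 3 lower, where 8.70% passed and 4.22% were lower, and on average 3 were higher and 4 lower, where 8.49% passed and 4.08% were lower. For the interaction 9 of 11 were higher in males, where 8.03% passed and 3.76% were lower. Without VBT female water 2 the female count went from 12 to 4 and the interaction count from 11 to 4. The share of all genes in that fit is not given here, so these lower counts cannot be set against a background. Col11a1 had the smallest p in the interaction, with means of 14.0 ± 4.13 and 23.9 ± 6.85 CPM in female water and fentanyl and 16.6 ± 4.25 and 11.8 ± 3.10 in male water and fentanyl (SD, n = 5 each; -1.26 ± 0.32, edgeR adjusted p = 0.23). On average Col12a1 came nearest (0.54 ± 0.16, edgeR adjusted p = 0.51). DESeq2 called Col6a5 in females, Col27a1 in males and 2 interactions (0.164%, 0.275% and 0.576% of all genes), and limma-voom called none.

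Over the 10 comparisons of region and sex, 11 of 42 members had a difference below zero in at least 8, against 9.39% of the 17595 genes tested in all 10, and 2 were above zero in at least 8, against 8.55%. Col4a1, Col5a3, Col9a1 and Col25a1 were below zero in 9, and Col4a2, Col6a3, Col6a6, Col11a1, Col11a2, Col13a1 and Col19a1 in 8, while Col12a1 and Col6a4 were above zero in 8. Regions may share animals, so these comparisons are not independent. The lowest and highest differences of Col4a1 were -0.41 and 0.056, and those of Col5a3 -0.82 and 0.24. Most of these differences did not pass the test on their own.

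Genes that make, bind or break down collagen were followed in 5 lists of 68 genes. In VTA males 22.0% of all genes were called and 11.0% were called lower, and the counts of the lists are to be read against that. There 3 of 16 basement membrane partners fell, with Agrn, the heparan sulfate proteoglycan agrin, at the smallest p (-0.53 ± 0.09, edgeR adjusted p = 0.00228). Of 19 genes of chain modification and folding 3 fell and 1 rose, and the prolyl hydroxylase family gene P3h3 had the smallest p (-0.52 ± 0.13, edgeR adjusted p = 0.00771). Of 13 tested genes of processing and crosslinking 2 fell, with Bmp1, the procollagen C-proteinase, at -0.36 ± 0.10 (edgeR adjusted p = 0.0154). Of 9 receptor genes 1 fell, the collagen receptor kinase Ddr1 (-0.42 ± 0.13, edgeR adjusted p = 0.0296). With GC offsets Agrn alone of these 10 called genes remained called in VTA males (-0.28, edgeR adjusted p = 0.0177). None of the degradation genes, the metalloproteinases with their inhibitors and Ctsk, was called in any comparison by edgeR.

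On the VTA average, where 23.1% of all genes were called and 12.0% lower, 3 of 16 basement membrane partners, 4 of 19 modification genes, 1 of 13 processing genes and 1 of 9 receptor genes fell, with Agrn at -0.38, Plod3, a lysyl hydroxylase, at -0.26, Bmp1 at -0.29 and Ddr1 at -0.36. Of these 9 Agrn alone remained called with GC offsets (-0.20, edgeR adjusted p = 0.0105). In PrL Bmp1 fell in females (-0.46 ± 0.08, edgeR adjusted p = 0.0456) and on average (-0.38 ± 0.05, edgeR adjusted p = 0.00439), beside the laminin chain Lama5 on average (-0.40 ± 0.07, edgeR adjusted p = 0.0156), where 0.0210% of all genes were called in females and 0.697% on average. The female call of Bmp1 was made in 4 of 20 fits without 1 library and in 5 of 11 other alternatives, and it was lost with the replicate block (edgeR adjusted p = 0.0612) and with GC offsets (0.113). With the percentage of reads outside exons as a covariate no gene was called in PrL, and on average Bmp1 had -0.24 and Lama5 -0.32 (edgeR adjusted p = 0.576 and 0.611). Without the 3 PrL libraries high in choroid plexus or olfactory bulb genes Lama5 was not called either (edgeR adjusted p = 0.106). The vessel markers given above were lower beside these calls, and their part was not tested. Bmp1 means in PrL females were 66.3 ± 6.47 CPM with water and 47.2 ± 3.06 with fentanyl (SD, n = 5 each). In S1 the crosslinking enzyme Lox fell on average (-0.94 ± 0.21, edgeR adjusted p = 0.0343), as did the collagen-binding integrin Itga1 (-0.45 ± 0.09, edgeR adjusted p = 0.0249), where 1.03% of all genes were called. Vessel and fibroblast markers were lower beside them. Mean summed CPM of the endothelial list was 605 and 585 in female and male water and 535 and 509 with fentanyl, that of the mural list 397 and 399 against 335 and 334, and that of the fibroblast list 124 and 133 against 119 and 97.6. On average 12 of 12 endothelial, 8 of 10 mural and 14 of 14 fibroblast genes were below zero, of which 2 endothelial genes were called lower. Their part in the Lox and Itga1 differences was not tested. Lox lost its call with the replicate block (edgeR adjusted p = 0.0596) and without S1 female water 2 and male fentanyl 2 (0.0605), and was called in 10 of 19 fits without 1 library. In NAc males Lama5 fell (-0.56 ± 0.11, edgeR adjusted p = 0.0358), where 0.662% of all genes were called. It was not called with the replicate block, with exon-length offsets or without NAc male fentanyl 3 (edgeR adjusted p = 0.0663, 0.0877 and 0.0886), fits in which 2, 11 and 4 genes in all were called. Over the 20 fits without 1 library its difference lay between -0.59 and -0.51, and 13 of them called it.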

How the data were processed

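Libraries were made with Smart-Seq v4 from 10 ng of RNA of tissue punches, per the labels' protocols. The authors deposited 1 file of raw counts per gene for each of 99 libraries, and HTSeq and the GRCm38 build are named in the submitters' processing notes. The aligner, the annotation release and the strand setting are not given in the sources used here. Rows that name no gene held 16.2% to 24.0% of each library's reads and were left out. Symbols, positions and exon lengths came from GENCODE M21, which held 55154 of the 55335 gene IDs.

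Groups came from the labels. One VTA male water library with under 10000 genes detected was left out, and 98 libraries with 23032078 to 52069639 counts were tested. edgeR 4.0.16 (R 4.3.3) was run per region with TMM normalization, its filter on low counts, 1 coefficient per sex and treatment, robust dispersion and the quasi-likelihood F-test. One further fit over all libraries set each region against the other 4. Benjamini-Hochberg adjustment ran over all genes tested, with a threshold of 0.05 and, between regions, also 2-fold. CPM was computed from the deposited counts over the total in genes of each library. Alternatives were DESeq2 1.42.0, limma 3.58.1 (voom with sample weights), DESeq2 size factors, other filters, offsets for GC content or exon length (lowess span 0.3 per library), the percentage of reads outside exons as a covariate, the replicate number as a block, water libraries alone between regions, all libraries, leaving out each library, and leaving out libraries high in choroid plexus, olfactory bulb or striatal genes. Tested on simulated counts, the VTA male comparison recovered 89 of 100 genes changed 2-fold and 70 of 100 changed 1.5-fold, and it called 8 unchanged genes. The simulated libraries had no trend with GC content, unlike the VTA libraries, so these rates need not hold for the real comparison.

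The members and lists were chosen with earlier results of these data known. Named were every member called in any of the 20 fentanyl comparisons, the member with the smallest p where none was called, up to 3 higher and 2 lower members per region, and the 10 highest levels. From each pathway list the called gene with the smallest p was named. Depth limits precision mainly for Col4a6 and Col10a1, and adjusted p-values cover the spread between these libraries.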

Additional observations from a re-analysis of the deposited data

Results flagged for a closer look

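In groups of 4 or 5 libraries, 5 of 96 sets of values of the collagen genes called or nearest to a call held 1 library far from the rest, where chance gives about 4.8. Col6a5 had 4.75 CPM in VBT female water 2, against 0.0819 to 0.244 in the other 4 libraries, and that library was also high in choroid plexus genes. Col6a5 had 0.0249 CPM in VBT female fentanyl 4, against 0.101 to 0.119. Col12a1 had 6.26 CPM in VBT male water 3, against 4.79 to 5.05. Col9a3 had 11.2 CPM in VTA male fentanyl 1, against 17.3 to 19.4, and Col2a1 had 3.08 CPM in VTA female fentanyl 1, against 4.93 to 5.57.

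Col16a1 was separated in opposite directions in females of the 2 cortical regions, though neither difference was called (edgeR adjusted p = 0.0779 in S1 and 0.36 in PrL). Every fentanyl library lay above every water library in S1 (log2 difference 0.47) and below every water library in PrL (log2 difference -0.27). The difference between the regions was not tested.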

How the results depend on the processing

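Counts of collagen genes called moved by more than 1.5 times under these alternatives. With GC offsets they were 4 in VTA males, 2 on the VTA average and 2 in NAc males (4.32%, 4.84% and 1.75% of all genes). With all 20 VTA libraries they were 0 in males and 1 on average (0.216% and 0.309%), and with GC offsets as well 6 and 0 (25.9% and 0.0257%); in that fit Col4a2 changed sign, to 0.060 in males and 0.035 on average. DESeq2 called 1 in VBT females, 1 in VBT males, 2 in the VBT interaction, 3 in S1 females, 1 on the S1 average, 1 in PrL males, 6 on the PrL average, 8 in NAc males, 2 on the NAc average and 1 in the NAc interaction, where it called 0.164%, 0.275%, 0.576%, 2.04%, 3.27%, 0.147%, 4.08%, 4.74%, 0.554% and 2.37% of all genes. Limma-voom called 1 in the VTA interaction, 1 in S1 females, 4 on the PrL average, 5 in NAc males and 3 on the NAc average (3.04%, 1.06%, 1.62%, 7.76% and 1.13% of all genes). The covariate of reads outside exons gave 0 on the PrL average and 3 each in NAc males and on the NAc average (1.47% and 1.46% of all genes). Without the filter on low counts S1 females had 1 (0.169% of all genes), and with a mean count of at least 50 the S1 average and NAc males had 1 each (1.77% and 1.91%). Without the 11 libraries high in choroid plexus or olfactory bulb genes, an alternative chosen after seeing the data, the PrL average had 1 call (0.0668% of all genes), and Col4a1 and Col26a1 there and Col20a1 in VTA males were no longer called. A threshold of 4-fold left 5, 4, 2, 2 and 4 members in VTA, VBT, S1, PrL and NAc, where 5.80%, 6.73%, 3.22%, 4.17% and 3.96% of all genes were called. Centred on groups, r of Col4a1 and Col4a2 with the endothelial list was 0.65 in VTA and 0.29 in PrL. Apart from the stricter thresholds and filters, the cause was not tested.

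Leaving out 1 library gave 7 to 14 calls in VTA males, 8 to 12 on the VTA average, 0 to 1 in S1 females and on the S1 average, 1 to 3 on the PrL average, 0 to 6 in NAc males, 0 to 2 on the NAc average and 0 to 1 in the NAc interaction. The share of all genes called also moved between such fits, as given above for VTA males. These ranges therefore do not describe collagen genes alone. S1 females had 1 call without female fentanyl 3 or male fentanyl 5, and the S1 average had 1 without female fentanyl 3, male fentanyl 4 or male fentanyl 5. NAc males had 6 without male fentanyl 5 and 2 without female water 3, the NAc average had 2 without male fentanyl 5, and the NAc interaction had 1 without female fentanyl 5.

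Of 48 same-numbered pairs of libraries, 16 had deviations correlated above 0.1 (range -0.432 to 0.451), so the numbers were not taken as pairs. With the replicate number as a block, 11 members were called in VTA males, 10 of them shared, 10 on the VTA average and 1 on the S1 average, where 19.4%, 21.2% and 0.567% of all genes were called.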

Other observations

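The VTA male water library left out for its 6333 detected genes had a count for 10 of the 44 collagen genes and 0 for the other 34. Its highest values were 118 CPM for Col11a2, 113 for Col6a3, 93.7 for Col25a1, 67.7 for Col27a1 and 60.2 for Col16a1. Col4a1 had 13.9 CPM there, below the 75.3 of the lowest of the other 4 male water libraries.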
